A study of Mus musculus with 4 samples.

Results

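The 36 genes described here belong to the unfolded protein response and the integrated stress response, and were read in oligodendrocytes sorted from mouse cerebral cortex. They were taken by gene symbol from a table of 35869 rows, and each symbol stood on 1 row. The rule that picks them uses names and no measured value. Cells carrying both O4 and GalC, lipid antigens of late precursors and young oligodendrocytes, were collected by fluorescence-activated sorting from cortices at postnatal day 5. There were 2 libraries with the genotype label Zfp488 KO, which the series' design names Zfp488KI/KI mice, and they are compared with 2 libraries labelled WT, which the design calls control. Zfp488 encodes a zinc finger protein. How the allele was built, any Cre or reporter, the strain and any pooling of animals are not stated in the labels. No label says that the libraries of a genotype came from separate animals, so the p-values rest on a spread among libraries that may be technical alone.

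The endoplasmic reticulum (ER) folds secreted and membrane proteins, a heavy task in a cell that builds myelin. When unfolded proteins build up, 3 membrane sensors respond. ATF6 raises chaperone genes, IRE1 (gene Ern1) does so by splicing Xbp1 mRNA, and PERK (Eif2ak3) phosphorylates the initiation factor eIF2 and slows translation. The integrated stress response is the pathway downstream of eIF2 phosphorylation, which amino acid shortage also starts through GCN2 (Eif2ak4). It favours translation of Atf4 mRNA, and ATF4 protein then raises genes of amino acid synthesis and, under lasting stress, the death-promoting factor CHOP (Ddit3). Activity of these sensors and of ATF4 is set largely after transcription, which FPKM, a transcript level scaled to transcript length and library size, does not show.

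Some facts of the libraries bear on what follows. Zfp488 was at 4.82 and 4.11 FPKM in KO and at 6.61 and 5.29 FPKM in WT (limma, adjusted p = 0.95). That is a weak check of labels, since any part of the locus left by the allele could still be read. Whether any part remains was not tested. The values of all rows summed to 311846 and 320581 in KO and to 336530 and 341145 in WT. All 11 markers of precursors and of the lineage (Olig1, Olig2, Sox10, Pdgfra and others) passed the level filter, and KO 1 and KO 2 were each higher than either WT library for 6 of them and lower for 1. Of 11 markers of myelinating cells 9 were tested, and for 6 of them KO 1 and KO 2 were each lower than either WT library (over all tested rows 16.6% were higher in this way and 18.3% lower), and Mal and Aspa were listed at 0 in every library. Libraries numbered 2 stood apart in both genotypes. Their 12 vascular markers summed to 73.5 FPKM in KO 2 and 81.0 in WT 2, against 9.92 in KO 1 and 0.461 in WT 1. Microglial markers, 10 in number, summed to 123.6 in KO 2 and 116.3 in WT 2, against 33.0 in KO 1 and 35.2 in WT 1. The 20 genes known to respond to tissue dissociation summed to 455.6 in KO 2 and 326.3 in WT 2, against 136.4 in KO 1 and 161.5 in WT 1. Neuron markers (11) summed to between 24.7 and 41.6 FPKM in KO and between 16.96 and 33.0 FPKM in WT.

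The stress response genes of these cells were dominated by ER folding machinery. Of the 36 genes, 8 averaged at least 100 FPKM over the 4 libraries, and 14 averaged under 10 FPKM. Calr was the highest, at rank 63 of all rows, followed by Pdia6, Pdia3, Hsp90b1 and Hspa5 at ranks 105, 140, 168 and 248. The sensors and the markers of acute or lethal stress were at the other end. Together the 36 genes made up 0.883% and 0.824% of summed FPKM in KO and 0.816% and 0.759% in WT, so both KO shares stood above both WT shares, KO 2 over WT 1 by a small margin, while their sums of 2755 and 2640 FPKM in KO and 2747 and 2590 FPKM in WT overlapped.

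**Figure D1:**
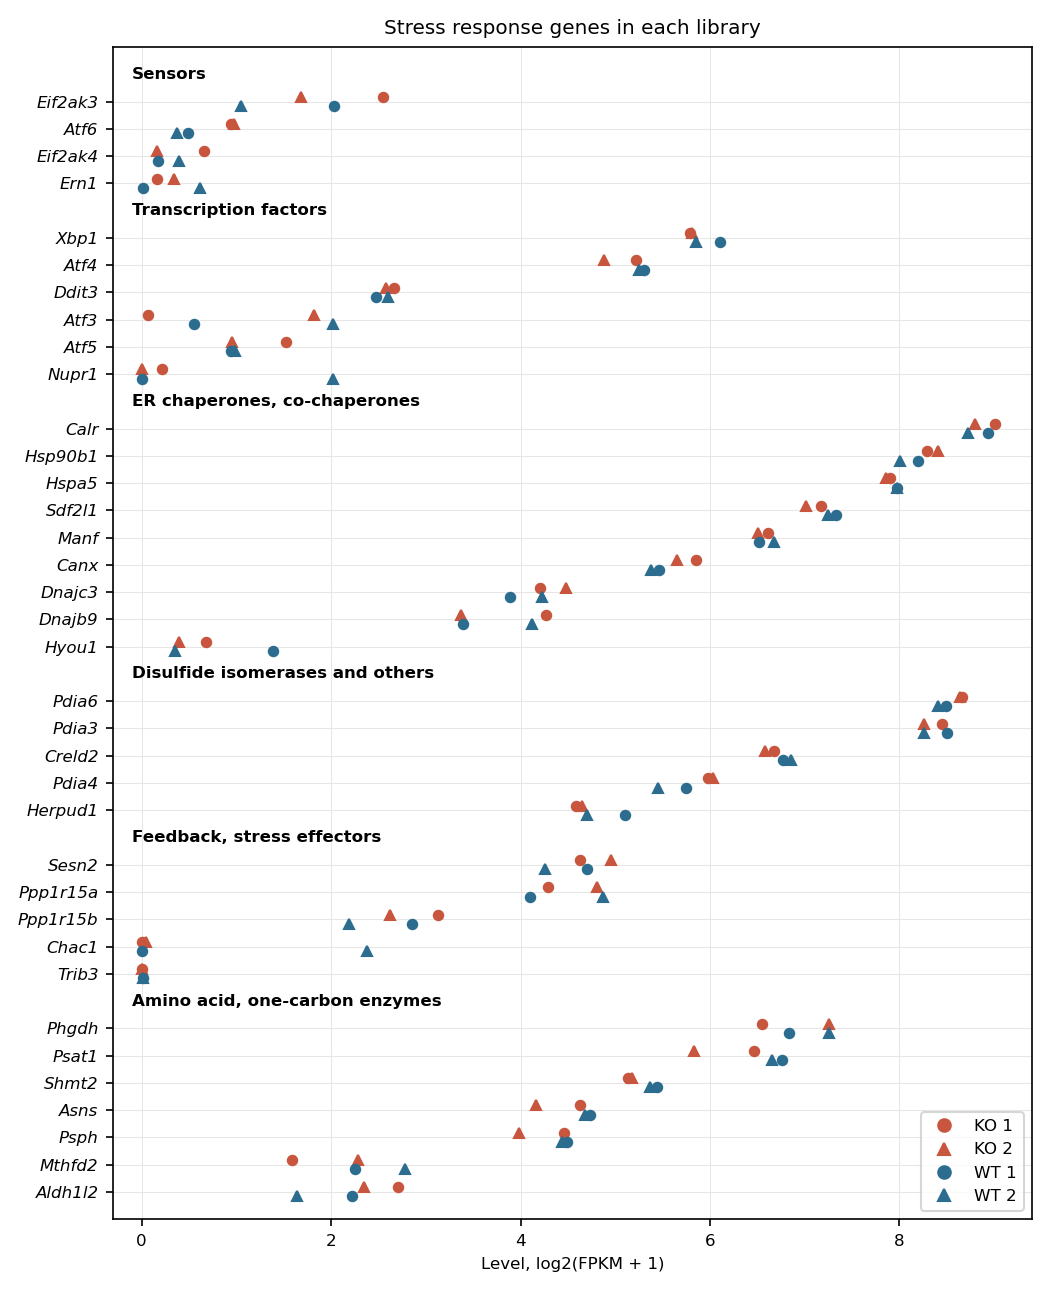
Level of each of the 36 genes in each library as log2(FPKM + 1), with genes grouped by role and ordered by mean level. Red symbols are KO and blue are WT, with circles for libraries numbered 1 and triangles for those numbered 2; Calr, Pdia6 and Pdia3 sit at the right, Trib3 near 0 in every library, and Chac1 and Nupr1 stand off 0 mainly in WT 2.

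No gene of the group passed the test between genotypes. Rows that reached 1 FPKM in 2 or more libraries were tested on log2(FPKM + 1) with limma, which left 28 of the 36 genes and 10754 rows in all. Of the 28, 0 had an adjusted p under 0.05 and 0 had an unadjusted p under 0.05, against 0% and 5.65% of all tested rows. The smallest adjusted p was 0.905, for Psat1. Both KO libraries lay above both WT libraries for 5 of the 28 (17.9%, background 16.6%), namely Hsp90b1, Canx, Pdia4, Pdia6 and Aldh1l2. They lay below for 9 (32.1%, background 18.3%), namely Atf4, Xbp1, Hspa5, Sdf2l1, Creld2, Herpud1, Asns, Psat1 and Shmt2. That split depended on scaling: with each library rescaled to the same sum (TPM), 8 genes were above (28.6%, background 21.7%), the same 5 with Ddit3, Dnajc3 and Sesn2, and 2 below (7.14%, background 13.1%), Psat1 and Shmt2. The median log2 fold change of the 28 genes was -0.032 as deposited and 0.067 after rescaling, beside 8.1e-05 and 0.095 for all tested rows. All differences below are therefore measured values that did not pass. In bulk libraries like these, fewer cells of a kind and less RNA per cell cannot be told apart.

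**Figure D2:**
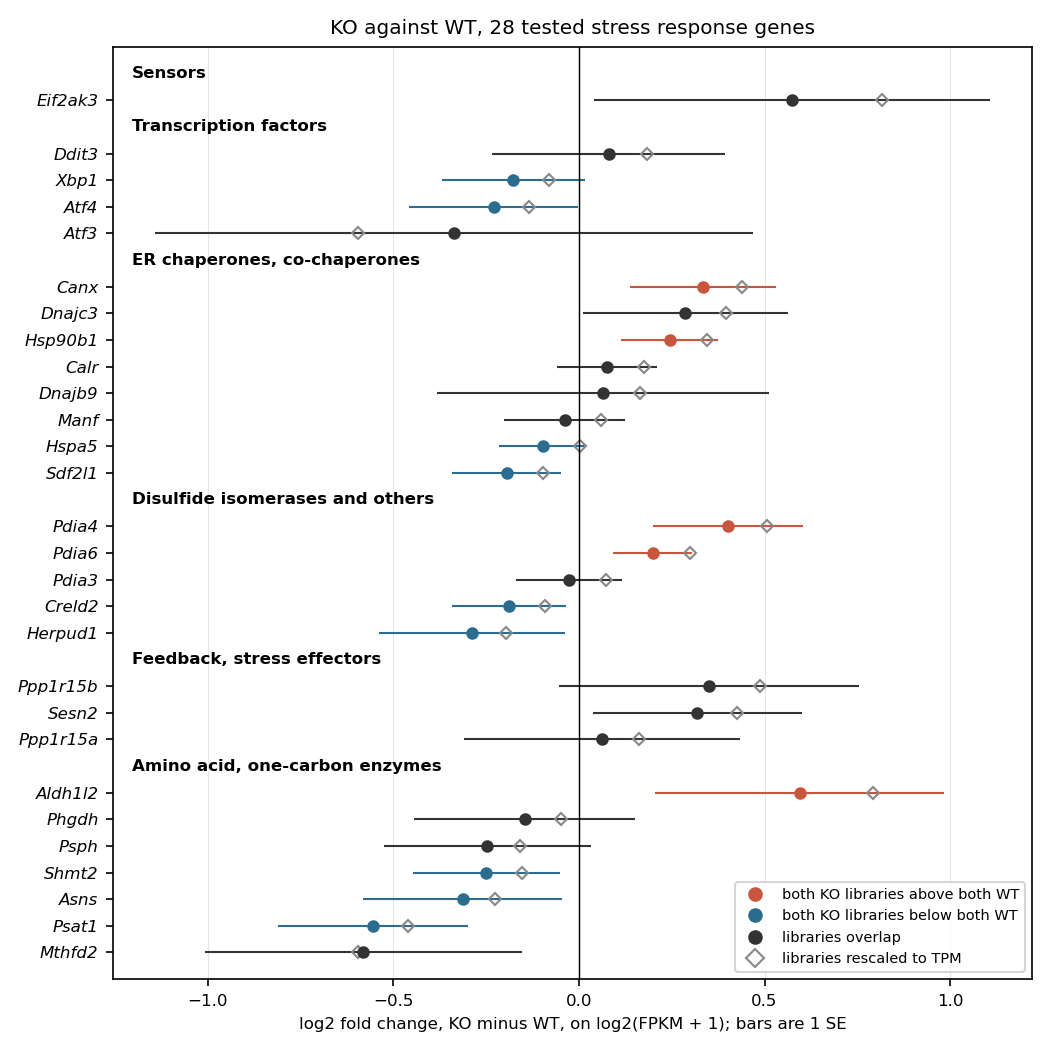
log2 fold change of KO minus WT with 1 SE (limma) for the 28 tested genes, by role. Red marks genes with both KO libraries above both WT libraries (5 genes), blue those with both below (9 genes) and black those that overlap (14 genes), and open diamonds show the same value after rescaling to TPM, which lies to the right for 26 of the 28.

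The sensors were low in every library. Eif2ak3, the kinase PERK, was the only one of the 4 that entered the test, at 4.84 and 2.21 FPKM in KO and 3.08 and 1.07 FPKM in WT. The higher library of each genotype was number 1, and the genotypes overlapped (log2 fold change 0.57, SE 0.53, adjusted p = 0.949 by limma). Atf6 was at 0.924 and 0.970 FPKM in KO and 0.407 and 0.299 FPKM in WT. The 2 KO values lay close together and above both WT values, but the gene was under the level required for testing, and with no level filter its adjusted p was 0.865 (limma, log2 fold change 0.53, SE 0.21). Ern1, the kinase and nuclease IRE1, was at 0.120 and 0.269 FPKM in KO and 0.007 and 0.533 FPKM in WT, so WT held both its lowest and its highest library. Eif2ak4, which senses uncharged tRNA, ranged over all libraries between 0.123 and 0.574 FPKM. Transcripts of all 4 sensors are long, from 4513 to 7246 bases in the longest annotated form.

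Among transcription factors, Xbp1 and Atf4 were the abundant ones. Xbp1 was at 54.4 and 55.1 FPKM in KO and 67.9 and 56.7 FPKM in WT. KO 1 and KO 2 were almost equal and both were lower, but WT 2 exceeded them by little (log2 fold change -0.18, SE 0.19, adjusted p = 0.965 by limma). The table gives 1 value per gene, so spliced and unspliced Xbp1 mRNA are not separated. Atf4 was at 36.2 and 28.4 FPKM in KO and 38.6 and 37.0 FPKM in WT. KO 1 lay just under the WT libraries and KO 2 further down, and the log2 fold change was -0.23 (SE 0.23, adjusted p = 0.95 by limma). After rescaling to TPM, neither gene separated the genotypes.

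The factors that mark stronger stress were low. Ddit3, which encodes CHOP, was at 5.35 and 4.97 FPKM in KO and 4.57 and 5.09 FPKM in WT. The 4 values were within 1 FPKM of each other and the genotypes overlapped (log2 fold change 0.08, SE 0.31). Atf3, an immediate stress factor, was at 0.051 and 2.53 FPKM in KO and 0.462 and 3.05 FPKM in WT. In each genotype library 2 was the high one, and the difference between numbers was larger than that between genotypes (log2 fold change of KO minus WT -0.34, SE 0.80). Atf5, a factor also under eIF2-dependent translation, was at 1.87 and 0.941 FPKM in KO and 0.922 and 0.982 FPKM in WT, and was not tested. Nupr1, a small stress-induced nuclear protein, reached 3.07 FPKM in WT 2 and was at most 0.160 FPKM in the other libraries, 2 of which listed it at 0.

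Most ER chaperones were well expressed in all libraries, and as deposited they were divided in direction. Of 8 tested chaperones and co-chaperones, both KO libraries were above for Hsp90b1 and Canx and below for Hspa5 and Sdf2l1. Each share was 25.0%, beside 16.6% above and 18.3% below of all tested rows. Calr, Dnajb9, Dnajc3 and Manf overlapped (median log2 fold change of the 8 genes 0.07). The split depended on scaling. After rescaling to TPM, 3 were above and 0 below (background 21.7% and 13.1%). Quantile normalization gave 4 above and 0 below, and removal of length and level trends gave 2 above and 1 below. Summed over the 9 genes, chaperones and co-chaperones gave 1398 and 1312 FPKM in KO and 1350 and 1257 FPKM in WT. Hspa5, which encodes BiP, the Hsp70 of the ER and the textbook readout of the unfolded protein response, was at 237.6 and 231.1 FPKM in KO and 250.4 and 251.3 FPKM in WT. Replicates were tight and KO was lower by a ratio of 0.934 (log2 fold change -0.10, SE 0.12, adjusted p = 0.972 by limma); after rescaling to TPM the log2 fold change was 0.0017. Hsp90b1, the Hsp90 of the ER (GRP94), was at 312.0 and 338.4 FPKM in KO and 293.3 and 256.2 FPKM in WT. Its KO mean was 1.18 times the WT mean (log2 fold change 0.24, SE 0.13, adjusted p = 0.914 by limma). BiP and GRP94 lay on opposite sides as deposited, and the contrast between them was not tested.

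Canx, the membrane lectin calnexin that holds glycoproteins during folding, was at 56.9 and 49.2 FPKM in KO and 42.9 and 40.6 FPKM in WT. Both KO values exceeded both WT values (ratio 1.27, log2 fold change 0.33, SE 0.20). Its soluble relative Calr, calreticulin, was at 515.0 and 444.5 FPKM in KO and 487.6 and 422.6 FPKM in WT, with library 1 above library 2 in both genotypes. Sdf2l1, part of a BiP complex, was at 143.1 and 128.3 FPKM in KO and 160.2 and 150.4 FPKM in WT. The 2 genotypes did not overlap for it as deposited (log2 fold change -0.19, SE 0.15), but its sign turned to 0.020 once trends with transcript length and level were removed. Manf, a small secreted ER protein that binds BiP, ranged from 89.8 to 100.9 FPKM. Dnajb9 and Dnajc3, J-domain partners of BiP, averaged 13.8 ± 6.31 and 19.4 ± 2.77 FPKM in KO and 13.0 ± 4.94 and 15.8 ± 2.80 FPKM in WT (SD, n = 2). Hyou1, the large Hsp70-like exchange factor of the ER, was listed at 0.599 and 0.31 FPKM in KO and 1.61 and 0.281 FPKM in WT, far below its partners.

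Some of these genes share a promoter element. The ER stress response element, bound by ATF6 together with the CCAAT factor NF-Y, reads CCAAT, then any 9 bases, then CCACG, and was searched on both strands from 250 bases before to 50 after each RefSeq start site (GRCm38.p6). Of the 31 genes with a promoter in that table, 7 held it (22.6%), against 37 of all 27025 genes (0.137%). The genes were listed by name as members of this response, so a high share was built into the choice and is not a test. An XBP1-type element (TGACGTGG) was in none of the 31 and in 0.714% of all genes, and the ATF4-type element TGATGNAAT was in 1 of 31, Nupr1, and in 1.08% of all genes. The sequences are shown because they mark which chaperone genes carry the element. They run in the direction of transcription, and capitals mark the 2 outer blocks, which read CGTGG and ATTGG where the element is on the opposite strand.
Hspa5: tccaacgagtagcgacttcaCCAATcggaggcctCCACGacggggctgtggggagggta
Hsp90b1, upstream copy: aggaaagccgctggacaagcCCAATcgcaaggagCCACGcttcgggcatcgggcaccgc
Hsp90b1, downstream copy: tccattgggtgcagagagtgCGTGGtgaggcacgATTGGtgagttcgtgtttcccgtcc
Canx: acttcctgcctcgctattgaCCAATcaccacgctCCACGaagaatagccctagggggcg
Calr: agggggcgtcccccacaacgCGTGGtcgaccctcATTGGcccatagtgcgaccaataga
Pdia6: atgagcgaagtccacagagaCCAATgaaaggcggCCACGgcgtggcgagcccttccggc
Dnajc3: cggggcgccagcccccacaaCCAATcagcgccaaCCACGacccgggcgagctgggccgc
Creld2: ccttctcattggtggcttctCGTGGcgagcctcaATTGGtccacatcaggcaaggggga

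The Hspa5 stretch lies at chr2:34772005-34772063 on the plus strand and its element begins 65 bases before the start site. For Hsp90b1, on the minus strand, the copies lie at chr10:86705618-86705676 and chr10:86705513-86705571, 212 and 107 bases before it. Canx (chr11:50325780-50325838, minus strand) and Calr (chr8:84847055-84847113, minus strand) have it at 145 and 162 bases. Pdia6 (chr12:17266471-17266529), Dnajc3 (chr14:118937807-118937865) and Creld2 (chr15:88819500-88819558), all on the plus strand, have it at 98, 105 and 126 bases. Of these 7 genes, both KO libraries were above for Hsp90b1, Canx and Pdia6, below for Hspa5 and Creld2, and overlapping for Calr and Dnajc3 (median log2 fold change 0.20). The 18 tested genes with a promoter but without the element had 1 above (5.56%) and 7 below (38.9%, median -0.19). Over all tested rows these shares were 16.6% and 18.3%. After rescaling to TPM, only Psat1 and Shmt2 of the 28 genes were below. Tested genes left out for want of a promoter were Aldh1l2 (log2 fold change 0.59, both KO libraries above), Ppp1r15b (0.35) and Manf (-0.038). The 7 genes have a median transcript of 3222 bases and the 18 one of 2209 bases, and length ran with fold change in these libraries (values further down). A match is a description of letters and not a binding site.

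Of 5 genes listed as disulfide isomerases or degradation factors, both KO libraries were above for the isomerases Pdia4 and Pdia6. They were below for Creld2 and Herpud1, and Pdia3 overlapped. After rescaling to TPM, 2 were above and 0 below (median log2 fold change 0.073), whereas quantile normalization kept 2 above and 2 below. Pdia4 (ERp72), a disulfide isomerase, was at 61.9 and 64.6 FPKM in KO and 52.9 and 42.8 FPKM in WT. Its KO values were close together and both higher (ratio 1.32, log2 fold change 0.40, SE 0.20, adjusted p = 0.914 by limma). Pdia6, another isomerase that also acts on IRE1, was at 402.6 and 397.1 FPKM in KO and 359.4 and 337.6 FPKM in WT. That is a ratio of 1.15, with all KO values above all WT values (log2 fold change 0.20, SE 0.11). After rescaling to TPM, Pdia6 and Hsp90b1 had unadjusted p of 0.041 and 0.047, with an adjusted p of 0.928 for each (limma). Pdia3 (ERp57), the isomerase that works with calnexin and calreticulin, was at 327.3 ± 29.6 FPKM in KO and 333.8 ± 38.9 FPKM in WT (SD, n = 2), and 5 alternative settings gave its difference the opposite sign.

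Creld2, an ER stress-induced secreted protein with isomerase activity, was at 101.0 and 94.6 FPKM in KO and 108.5 and 114.6 FPKM in WT. The genotypes did not overlap (ratio 0.877, log2 fold change -0.19, SE 0.15). Herpud1, an ER membrane protein of the degradation machinery, was at 23.1 and 24.1 FPKM in KO and 33.4 and 25.1 FPKM in WT. KO 2 was only slightly under WT 2, and WT 1 stood well above the other 3 libraries (log2 fold change -0.29, SE 0.25). Without WT 1 it was -0.088, without WT 2 it was -0.49, and after TPM rescaling the genotypes overlapped.

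Feedback genes and effectors of the integrated stress response included several that differed more between library numbers than between genotypes. Ppp1r15a (GADD34), which recruits the phosphatase that ends eIF2 phosphorylation, was at 18.5 and 27.1 FPKM in KO and 16.2 and 28.4 FPKM in WT. Both libraries numbered 2 were higher than both numbered 1, and the genotypes overlapped (log2 fold change 0.06, SE 0.37). Its constitutive counterpart Ppp1r15b (CReP) was at 7.77 and 5.15 FPKM in KO and 6.26 and 3.58 FPKM in WT, higher in number 1 of each genotype (log2 fold change 0.35, SE 0.40). Sesn2, a sestrin that restrains mTORC1, averaged 26.9 ± 4.5 FPKM in KO and 21.5 ± 4.85 FPKM in WT (SD, n = 2), with KO 1 under WT 1.

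Chac1, a glutathione-degrading enzyme and late target of ATF4, was at 0 and 0.033 FPKM in KO and 0 and 4.20 FPKM in WT. A single library, WT 2, carried it. Trib3, a pseudokinase that feeds back on ATF4 and CHOP, was listed at 0 in both KO libraries and at 0.013 and 0.011 FPKM in WT. Gdf15, a stress-induced secreted factor from the list of other ATF4 targets, was at 0 and 1.11 FPKM in KO and 0.011 and 5.76 FPKM in WT. For Atf3, Ppp1r15a and Gdf15, then, library 2 was the higher one in both genotypes, and these are the libraries with more vascular, microglial and dissociation-response transcripts (sums above). Of the 20 dissociation-response genes, 12 were likewise higher in library 2 of both genotypes. The part of other cells or of handling in these values was not tested.

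**Figure D3:**
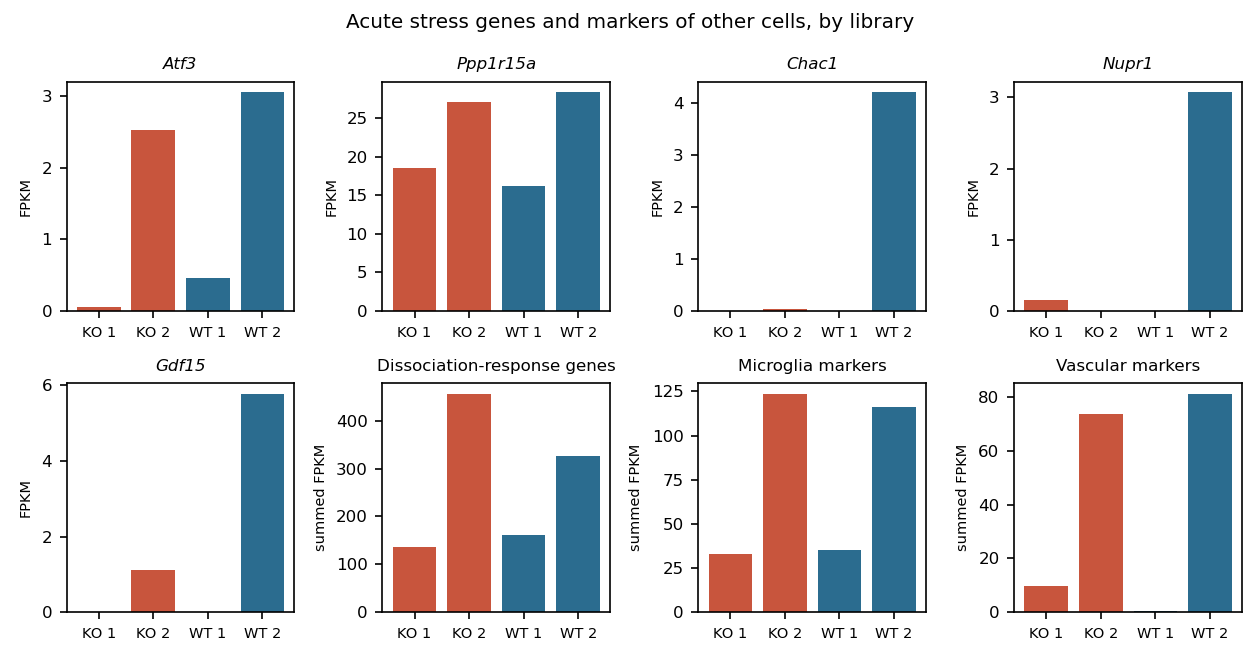
FPKM per library of Atf3, Ppp1r15a, Chac1, Nupr1 and Gdf15, and summed FPKM of the dissociation-response, microglial and vascular marker lists, with KO in red and WT in blue. For Atf3, Ppp1r15a, Gdf15 and the 3 sums, the libraries numbered 2 are the higher ones in each genotype, while Chac1 and Nupr1 are high in WT 2 alone.

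The enzymes of serine, asparagine and folate metabolism, which ATF4 is known to raise, leaned toward lower values in KO. Of 7, both KO libraries were below for Asns, Psat1 and Shmt2 (42.9%, background 18.3%), above for Aldh1l2 (14.3%, background 16.6%) and overlapping for 3. The log2 fold change was negative for 6 (median -0.25), beside 5376 of all 10754 tested rows. With TPM rescaling the median was -0.16 and again 6 were negative, with 2 below (background 13.1%) and 1 above (background 21.7%). Psat1, the transaminase of serine synthesis, had the smallest p of the 28 genes tested. With no level filter, which lets in all 36 genes, its unadjusted p was 0.122 and those of Pdia4 and Canx were the smallest (0.0655 each), with an adjusted p of 0.865 for all 3 (limma). It was at 87.4 and 56.0 FPKM in KO and 107.1 and 99.5 FPKM in WT. KO 2 was the lowest library by a wide margin and KO 1 lay between it and WT (ratio 0.694, log2 fold change -0.55, SE 0.26, unadjusted p = 0.083, adjusted p = 0.905 by limma). Without KO 2 the log2 fold change was -0.24, and without KO 1 it was -0.87.

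Asns, asparagine synthetase, was at 23.8 and 16.9 FPKM in KO and 25.6 and 24.7 FPKM in WT. It had the same order of libraries as Psat1, with KO 2 lowest (log2 fold change -0.31, SE 0.27). Psph, the phosphatase that finishes serine synthesis, averaged 17.9 ± 4.37 FPKM in KO and 21.1 ± 0.519 FPKM in WT (SD, n = 2). Atf4, Asns, Psat1 and Psph all had their lowest value in KO 2, as did Hspa5, Sdf2l1, Creld2, Manf and Dnajb9. KO 2 also had the lowest sum of the 11 myelinating markers (249.96 FPKM, against 530.6 in KO 1, 808.8 in WT 1 and 504.3 in WT 2). Atf4, Asns and Psat1 were higher in WT 2 than in KO 1, unlike that sum, whereas Psph had the order of the sum. Any link to the markers was not tested. Phgdh, which opens the serine pathway, was not lowest in KO 2. It was at 92.4 and 152.0 FPKM in KO and 113.4 and 151.8 FPKM in WT, higher in number 2 of each genotype. The gene is also well expressed in astrocytes. The 10 astrocyte markers summed to 261.8 and 332.0 FPKM in KO and 319.8 and 278.9 FPKM in WT, so their sum was higher in number 2 only in KO. That sum held much S100b, which was higher in number 1 (145.2 and 73.9 FPKM in KO, 228.2 and 108.4 FPKM in WT). The other markers, such as Slc1a3 (92.4 and 187.0 FPKM in KO, 71.9 and 102.1 FPKM in WT), were higher in number 2 of both genotypes. Fgfr3, at most 0.15 FPKM, was the exception. What other cells contributed was not tested.

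Mitochondrial folate enzymes were split. Shmt2, which moves a carbon from serine to folate, was at 34.1 and 35.2 FPKM in KO and 42.6 and 40.2 FPKM in WT. Both pairs were tight and did not overlap (ratio 0.837, log2 fold change -0.25, SE 0.20, adjusted p = 0.937 by limma). Mthfd2, the next enzyme, was low, at 2.003 and 3.87 FPKM in KO and 3.77 and 5.86 FPKM in WT. The genotypes overlapped, because KO 2 was just above WT 1 (log2 fold change -0.58, SE 0.43). Aldh1l2, which oxidizes formyl-folate, was the exception, at 5.51 and 4.10 FPKM in KO and 3.67 and 2.12 FPKM in WT (log2 fold change 0.59, SE 0.39). It is also the longest of the 7, with 6027 bases in the longest annotated transcript, against 1893 to 2877 for the others.

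Within libraries of the same number, KO minus WT had the same sign for 21 of the 28 genes, positive in 9 and negative in 12. The 9 were Eif2ak3, Hsp90b1, Dnajc3, Calr, Canx, Pdia4, Pdia6, Ppp1r15b and Aldh1l2. Genes whose genotypes do not overlap have the same sign in both numbers by construction. Only the 14 overlapping genes could differ, and 7 of them did. The share over all tested rows was not computed. The amino acid and folate enzymes had a median of -0.29 between KO 1 and WT 1 and of -0.46 between KO 2 and WT 2. For the chaperones these medians were 0.089 and -0.024, so the sign for that group differed between the library numbers.

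Transcript length moved with the fold change over all genes. Of the 10080 tested rows with a length, the shortest sixth (up to 1391 bases) had a median log2 fold change of -0.17 and the fifth sixth (3718 to 4756 bases) one of 0.13. The longest sixth (from 4758 bases) fell back to 0.088. Of the 9 stress response genes with both KO libraries below, 8 were in the 3 shorter sixths, and of the 5 above, 3 were in the longer ones. Most of the 28 tested genes lay in the 3 shorter sixths anyway, so the first count is little beyond that. Their median length was 2344 bases, against 2931 for all tested rows with a length. Sdf2l1 and Creld2, at 1108 and 1366 bases, had fold changes close to the median of their sixth. Others stood away from it: Pdia4 at 0.40 against 0.0018, Pdia6 at 0.20 against -0.067, Psat1 at -0.55 against 0.0018, Shmt2 at -0.25 against 0.0018 and Hspa5 at -0.10 against 0.066. Compared with their own sixth, 6 of 7 amino acid and folate enzymes were lower and 5 of 8 chaperones higher. After trends with length and level were removed, both KO libraries were above for 6 of the 28 (background 15.5%) and below for 4 (background 17.1%), and the enzyme median was -0.26. The part of length in these differences was not tested further.

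**Figure D4:**
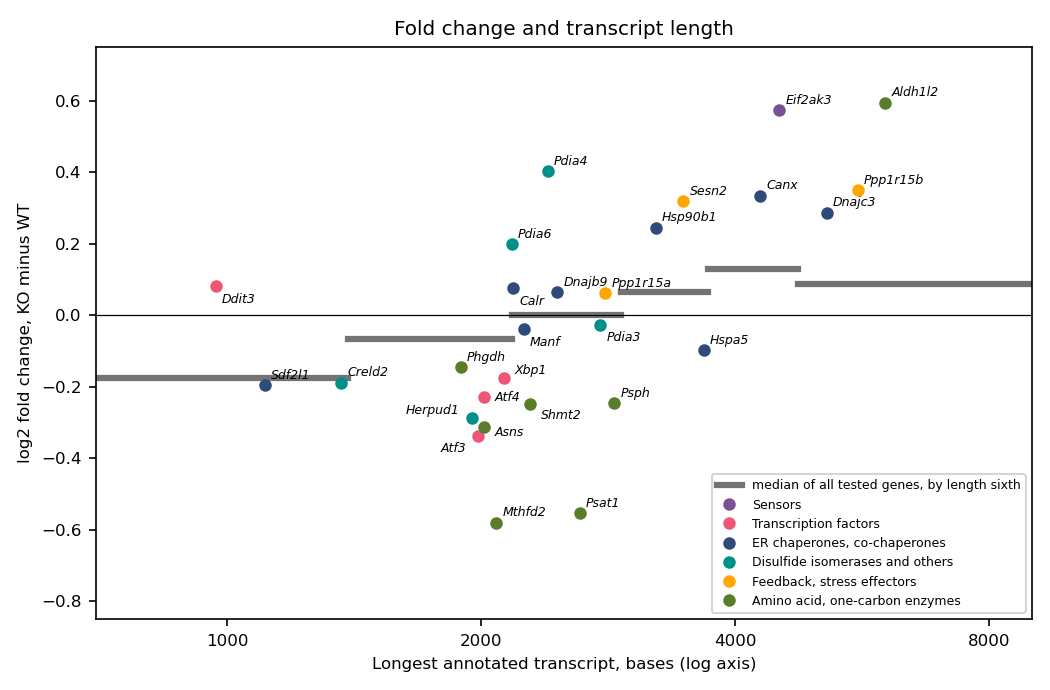
log2 fold change of KO minus WT against the longest annotated transcript in bases (log axis) for the 28 tested genes, coloured by role, with grey bars for the median of all tested genes in each length sixth. Pdia4 and Pdia6 lie above the bars and Mthfd2, Psat1, Asns and Shmt2 below them, whereas Sdf2l1 and Creld2 lie at the bar of the shortest sixth.

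The rest of the pathway was read from 8 lists with 152 genes, of which 144 were tested and 0 passed (limma). An unadjusted p under 0.05 was found for 5 of the 144, a smaller share than the 5.65% of all tested rows, and the 5 are named here for that value: Creb3l1, Txndc5, Iars and Slc1a4, higher in KO, and Srp14, lower. Both KO libraries were above for 29 of the 144 (20.1%) and below for 18 (12.5%), beside 16.6% and 18.3% of all tested rows. Counts for each list below are as deposited, and none is given after rescaling to TPM. That rescaling moved the shares of all tested rows to 21.7% above and 13.1% below. Creb3l1 (OASIS), an ER membrane factor related to ATF6, was at 5.06 and 4.76 FPKM in KO and 0 and 1.81 FPKM in WT (log2 fold change 1.82, SE 0.58, adjusted p = 0.859 by limma). It was the gene furthest from equality on the list of other ER stress factors. There 10 of 11 genes had a positive log2 fold change (median 0.34), beside 5378 of all 10754 tested rows. Of the 10, Creb3l2, Creb3 and Atf6b were near 0 (0.0091, 0.024 and 0.026). Both KO libraries were above for 4 of the 11 (36.4%) and below for 0. The 11 genes have a median transcript of 3787 bases, within the length sixth whose median over all tested rows was 0.13. The part of length in this lean was not tested. Wfs1, an ER membrane protein on that list, was at 7.79 and 4.24 FPKM in KO and 7.69 and 0.685 FPKM in WT, so WT 2 alone was low.

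Oxidative folding genes of the ER had 7 of 19 above (36.8%) and 1 below (5.26%, median 0.13). Txndc5, a thioredoxin-domain isomerase, was at 26.2 and 24.0 FPKM in KO and 17.5 and 12.4 FPKM in WT (log2 fold change 0.73, SE 0.28). The transmembrane thioredoxin Tmx4 was at 12.9 and 15.9 FPKM in KO and 10.3 and 5.86 FPKM in WT. Genes of ER-associated degradation had 0 of 18 above and 4 below (22.2%, median -0.035), the latter share near the 18.3% of all tested rows. The largest differences on that list were those of Faf2 (-0.57, SE 0.40) and Vimp (-0.40, SE 0.32), each with overlapping genotypes. The translocon and signal peptide list had 3 of 23 above (13.0%) and 8 below (34.8%, median -0.061). Its Spcs3 and Srp72 were higher in both KO libraries (0.56, SE 0.28, and 0.54, SE 0.29). Srp14, a small subunit of the signal recognition particle, was at 178.4 and 194.1 FPKM in KO and 274.5 and 251.3 FPKM in WT. Among 18 N-glycosylation genes 3 were above and 1 below (median 0.0099). Stt3a, a catalytic subunit of oligosaccharyltransferase, differed by 0.54 (SE 0.26) and Gmppb by 0.42 (SE 0.42).

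On the side of translation, 9 other genes around eIF2 had 0 above and 2 below (22.2%, median -0.23), beside 18.3% below over all tested rows. They were Eif2b1 to Eif2b5, which encode the exchange factor of eIF2, with the eIF2 subunit Eif2s1, the kinase Eif2ak1, Gcn1l1 and Impact. Eif2b4, a subunit of the exchange factor eIF2B that phosphorylated eIF2 blocks, was at 14.0 and 21.2 FPKM in KO and 23.7 and 23.5 FPKM in WT, and Eif2b3 differed by -0.32 (SE 0.36). Cytosolic aminoacyl-tRNA synthetases, many of them ATF4 targets, had 4 of 20 above and 1 below (median 0.044). Iars, for isoleucine, was at 9.44 and 6.40 FPKM in KO and 4.28 and 1.81 FPKM in WT, and Lars, for leucine, at 11.7 and 9.90 FPKM in KO and 7.31 and 5.23 FPKM in WT. Other ATF4 targets, amino acid transporters among them, had 8 of 26 above and 1 below (median 0.22), whereas the 7 enzymes above had a negative median. The 26 genes have a median transcript of 3197 bases and the 7 enzymes one of 2289 bases. The neutral amino acid transporter Slc1a4 was at 45.6 and 52.3 FPKM in KO and 24.4 and 31.0 FPKM in WT, and Xpot, the tRNA export receptor, at 1.77 and 2.90 FPKM in KO and 1.48 and 0.374 FPKM in WT. The difference between the 2 lists was not tested.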

How the data were processed

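RNA sequencing of 4 libraries of sorted oligodendrocytes was analysed, 2 labelled Zfp488 KO and 2 WT. Values are FPKM as deposited, 1 column per library, per the file headers. TopHat and the mm10 build are named in the submitters' processing notes. The program behind the FPKM, its annotation and its strand setting were not given in the sources used here. Total reads are not given, so no counting interval is printed. Reads of overlapping genes (9 of the 36 overlap a protein-coding gene in RefSeq GRCm38.p6, such as Ddit3, Hspa5, Pdia3 and Psph) and of the pseudogene of Phgdh may be shared, and an exact 0 can be a failed estimate.

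Rows with at least 1 FPKM in at least 2 libraries were tested as log2(FPKM + 1) with limma 3.58.1 in R 4.3.3 (genotype, empirical Bayes with a mean-variance trend, Benjamini-Hochberg over 10754 rows, threshold 0.05, two-sided). The log2 fold change is KO minus WT and understates changes of low genes, SE is that of the model, and the code was tested on simulated data. Lengths are the longest GENCODE M21 transcript. The genes, lists, named genes (8 fixed ones, all whose genotypes did not overlap, the 8 with the largest fold change, and 2 per other list) and alternatives were chosen with earlier results of these data known. Genes named for their p and per-library values of Nupr1, Chac1, Trib3, Hyou1, Ppp1r15a, Calr and Phgdh were chosen after their values were seen. Alternatives were other pseudocounts, filters, scalings and variance models, a replicate block, leaving out each library, and removal of length and level trends.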

Additional observations from a re-analysis of the deposited data

How the results depend on the processing

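No row and none of the 28 genes passed at an adjusted p of 0.05 in limma under any of the 16 alternatives fitted (0 in each; 608 rows and 0 of the 28 genes had an unadjusted p under 0.05 as reported). Of 299 refitted log2 fold changes of 19 named genes, 294 kept their sign. Filters, variance models and the replicate block leave a fold change as it was, so those values could not turn. Most of the 19 were also named for non-overlap or a large fold change. Of all 28 tested genes, a different set of 19 kept their sign under every alternative, and Manf and Pdia3 turned under 5 alternatives each. Hspa5 turned to 0.0017 with TPM rescaling and 0.091 with quantile normalization, Sdf2l1 to 0.020 after removal of length and level trends, and Atf3 ranged from -1.21 to 0.54 when 1 library was left out (0.40 without WT 2, 0.54 without KO 1). The 5 genes with both KO libraries above became 8 with TPM rescaling and the 9 below became 2; removal of the trends left 4 below. With 1 library left out, between 8 and 10 were above and between 11 and 13 below, but non-overlap is then easier to meet, and 30.5% to 35.5% of all tested rows were above and 32.7% to 36.6% below. The median of -0.032 became 0.067 with TPM rescaling, 0.052 with quantile normalization and 0.044 after removal of the trends, and lay between -0.094 and 0.028 with 1 library left out, where the lone library of a genotype is assumed to vary like the other pair. Removal of the trends and the comparison within library numbers were chosen after seeing the data. Library numbers are only names here, since the labels tie no number to an animal or batch; with a replicate block, 0 rows passed, 1025 had an unadjusted p under 0.05, and Psat1 had an adjusted p of 0.482. Deviations of libraries with the same number correlated at 0.289 over tested rows. The cause of these shifts was not tested.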
